A study of Mus musculus with 31 samples.

Results

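Genes that are highly expressed in the striatum, the large nucleus that lies beneath the cortex, were followed through every library of a study of mouse brain cortex. The 7 genes were Drd1, Drd2, Ppp1r1b, Adora2a, Penk, Rgs9 and Pde10a, out of 20436 gene symbols in the deposited count tables, and the rule that picked them was that they are known as striatum-enriched genes. Their mRNA and their ribosome footprints were read in each library to see how the content of striatal transcripts varied from one dissected cortex to the next. The labels hold no record of the dissections, so no value below can be tied to one. Footprints, also called ribosome-protected fragments (RPF), are the stretches of mRNA that ribosomes shield from nuclease. All 7 genes passed the filter on low counts in both assays, so none was left out.

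The tissue was cortex of mice at postnatal days 29 to 34, in 4 genotypes. Wild type (WT) was compared with mice deficient in Fmr1 (FXS), the gene that is silenced in fragile X syndrome, with mice deficient in Rps6kb1 (S6K1), which encodes the ribosomal protein S6 kinase, and with mice deficient in both (DKO). The labels name no treatment, strain or sex, and they do not describe the alleles. The mRNA was measured in 16 libraries, 4 per genotype, in batches 5 to 8, each of which held each genotype once. Footprints were measured in 15 libraries, with 4 of WT in batches 2, 3, 4 and 4, 5 of FXS in batches 2, 2, 3, 4 and 4, 3 of S6K1 in batches 1, 2 and 3, and 3 of DKO in batches 1, 3 and 4. Batch 2 therefore held no DKO library, and batch 1 held only S6K1 and DKO. The labels do not say whether libraries came from separate animals, or whether footprint and mRNA libraries shared animals, so the p-values measure the spread between these libraries, which may in part be technical.

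Most striatal neurons are medium spiny neurons, which use GABA as transmitter and receive dopamine from the midbrain. Those of the direct pathway carry the dopamine D1 receptor, which raises cyclic AMP, and those of the indirect pathway carry the dopamine D2 receptor, which lowers it, together with an adenosine receptor encoded by Adora2a and the peptide enkephalin. Both types share a signalling apparatus that acts on cyclic nucleotides and on G proteins. In cortex the same genes are expressed more weakly: Drd1 and Ppp1r1b are found in deep-layer excitatory neurons, and Penk in some interneurons. In bulk tissue such as this, fewer cells of a type and less RNA per cell cannot be told apart.

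Sequences before the start sites of 3 of the 7 genes are shown, from RefSeq promoters of build GRCm38.p6. They are a description, and no link between them and the values below was tested. The RefSeq promoters covered 4 of the 7, with Ppp1r1b, Adora2a and Penk not among them. The windows of Pde10a and a further window of Drd1 are not printed. Each window holds the 250 bases before an annotated start site, read 5′ to 3′ on the gene's strand. Capitals mark the GC box, searched as GGGCGG and its reverse complement CCGCCC. The Drd1 window was chr13:54055659-54055908 on the minus strand, the Drd2 window chr9:49340153-49340402 on the plus strand, and the Rgs9 window chr11:109298182-109298431 on the minus strand.
Drd1: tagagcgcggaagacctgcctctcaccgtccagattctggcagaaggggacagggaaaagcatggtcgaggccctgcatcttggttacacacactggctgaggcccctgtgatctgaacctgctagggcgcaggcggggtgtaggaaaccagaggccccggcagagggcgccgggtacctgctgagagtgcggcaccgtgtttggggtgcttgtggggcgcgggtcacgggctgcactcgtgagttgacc
Drd2: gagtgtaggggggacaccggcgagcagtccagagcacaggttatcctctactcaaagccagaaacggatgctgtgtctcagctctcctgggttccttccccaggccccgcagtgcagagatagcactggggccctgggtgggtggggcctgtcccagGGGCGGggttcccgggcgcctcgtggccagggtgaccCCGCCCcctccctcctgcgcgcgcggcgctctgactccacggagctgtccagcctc
Rgs9: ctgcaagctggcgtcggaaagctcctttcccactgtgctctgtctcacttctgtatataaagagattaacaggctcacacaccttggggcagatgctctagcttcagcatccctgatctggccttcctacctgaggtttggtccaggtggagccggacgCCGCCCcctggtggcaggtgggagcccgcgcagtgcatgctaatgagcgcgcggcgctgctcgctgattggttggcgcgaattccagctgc

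The Drd1 window shown held 0 GC boxes, the Drd2 window 2 and the Rgs9 window 1. A window at a further Drd1 start held 1, and of 2 windows of Pde10a 1 held 1 GC box and the other 0. Of 32851 promoters of the same length, 32.7% held this motif on either strand. The letters TATAAA or TTTATA occurred in the Rgs9 window, and in 12.4% of all promoters. The letters TGACG or CGTCA, a core motif of cyclic AMP response elements, were in none of these 6 windows, and in 17.8% of all promoters. The Drd2 window was 68.8% G and C against a median of 52.4% for all promoters. These matches describe letters only, and none of the 3 motifs searched was common to all the windows.

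The genes sit on 6 chromosomes. In GRCm38.p6 Drd1 lies at chr13:54051183-54055658, Drd2 at chr9:49340360-49408177, Adora2a at chr10:75316877-75334792, Penk at chr4:4133536-4138815 and Pde10a at chr17:8525187-8986648. Ppp1r1b at chr11:98348406-98357796 and Rgs9 at chr11:109225348-109298181 share chromosome 11 with the targeted gene Rps6kb1, at distances of 11.8 and 22.7 Mb. The counts are of reads over coding sequence.

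Library totals ran from 12.1 to 17.3 M counts for mRNA and from 16.6 to 34.9 M counts for footprints, where 1 count per M is 1 CPM. No 2 libraries of an assay agreed within sampling noise, as the closest pair still had a chi-square of 4.67 per degree of freedom in mRNA and 7.49 in footprints. The targeted genes followed the labels in footprints, given in CPM after scaling of library size. Fmr1 footprints were at 7.03 to 12.8 CPM in FXS and DKO and at 104 to 159 CPM in WT and S6K1. Rps6kb1 footprints were at 7.62 to 12.8 CPM in S6K1 and DKO and at 26.1 to 36.3 CPM in WT and FXS. In mRNA, Fmr1 was separated in the same way, while Rps6kb1 overlapped, at 28.2 to 43.7 CPM in S6K1 against 39.5 to 55.5 CPM in WT. Markers of the labelled tissue were present, as 6 cortical excitatory genes, among them Slc17a7, Neurod6, Neurod2, Tbr1 and Emx1, summed to 1674 to 3307 CPM in mRNA and 822 to 1330 CPM in footprints.

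Footprints of the 7 genes were highest in the 4 libraries of batch 2 or nearly so, in each of the 3 genotypes that batch held. These 4 were also the shallowest RPF libraries, with totals of 16.6 to 19.8 M counts against 20.8 to 34.9 M in the other 11. The part of depth in the values was not tested. Drd2 and Adora2a, receptor genes of the indirect pathway, varied most. Drd1 footprints in WT were 22.4 CPM in the library of batch 2 and 5.12, 8.24 and 8.40 CPM in those of batches 3, 4 and 4. In FXS, Drd1 was at 17.2 and 15.2 CPM in the pair of batch 2 libraries and at 7.32, 6.55 and 10.3 CPM in the others. In S6K1 it was at 21.5 CPM in batch 2, against 10.6 CPM in batch 1 and 10.9 CPM in batch 3, and in DKO, with no library in batch 2, at 6.84, 10.8 and 7.40 CPM. All libraries of batch 2 lay above all others for Drd1.

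Drd2 footprints were scarce outside batch 2. In WT they were at 5.30 CPM in batch 2 and at 0.0753, 0.916 and 0.928 CPM elsewhere. In FXS they were at 4.23 and 2.82 CPM in batch 2 and at 0.495, 0.839 and 1.70 CPM elsewhere. S6K1 had 4.28 CPM in batch 2, 0.790 CPM in batch 1 and 2.08 CPM in batch 3, and DKO had 0.20, 1.87 and 1.02 CPM in batches 1, 3 and 4. The highest and the lowest value both came from WT, from 105 and 2 counts, a ratio of 70.5 with an exact 95% interval of 19.03 to 589.6 that covers counting error only.

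Adora2a encodes an adenosine receptor that raises cyclic AMP in the same cells that carry Drd2. Its footprints in WT were at 12.2 CPM in batch 2 and at 0.301, 2.66 and 2.30 CPM in batches 3, 4 and 4. In FXS they were at 9.74 and 6.09 CPM in batch 2 and at 0.792, 2.28 and 4.93 CPM in batches 3, 4 and 4. In S6K1 and DKO, the library of batch 2 was at 9.22 CPM, while the others were at 1.58 and 4.03 CPM in S6K1 and at 0.640, 2.92 and 2.47 CPM in DKO. The highest of the 15 libraries was 40.6 times the lowest (242 and 8 counts, exact 95% interval 20.3 to 95.1).

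Penk, the precursor of the enkephalins, had more counts and the same order. Its WT footprints were at 198 CPM in batch 2 and 41.6, 67.1 and 63.7 CPM elsewhere, and those of FXS at 159.6 and 139 CPM in batch 2 and 45.9, 54.8 and 96.5 CPM elsewhere. S6K1 had 215 CPM in batch 2 and 74.4 and 94.9 CPM in batches 1 and 3, and DKO had 34.1, 77.4 and 51.3 CPM. Every batch 2 library again lay above every other library.

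Ppp1r1b encodes DARPP-32, which inhibits protein phosphatase 1 once protein kinase A has phosphorylated it. Its footprints were the exception to a clean separation. WT had 248 CPM in batch 2 and 78.4, 154 and 163 CPM in batches 3, 4 and 4, and FXS had 189.6 and 162 CPM in batch 2 and 59.3, 115 and 176 CPM in batches 3, 4 and 4. S6K1 was at 239.5 CPM in batch 2 and at 77.0 and 159 CPM in batches 1 and 3, and DKO at 39.4, 98.1 and 133 CPM. The lowest batch 2 library, of FXS, lay below 2 libraries of batch 4, so the groups overlapped.

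Rgs9, a regulator of G protein signalling that speeds the shutdown of G protein signals, and Pde10a, a phosphodiesterase that breaks down cyclic AMP and cyclic GMP, were both separated. Rgs9 footprints ran from 63.0 to 115 CPM in batch 2 and from 17.8 to 58.2 CPM in the other 11 libraries. Pde10a footprints ran from 104 to 151 CPM in batch 2 and from 22.7 to 78.3 CPM elsewhere. In all, the 4 libraries of batch 2 lay above every other library for 6 of the 7 genes, and for 1.41% of the 13953 genes tested. Batch 2 was singled out after its values were seen.

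**Figure D1:**
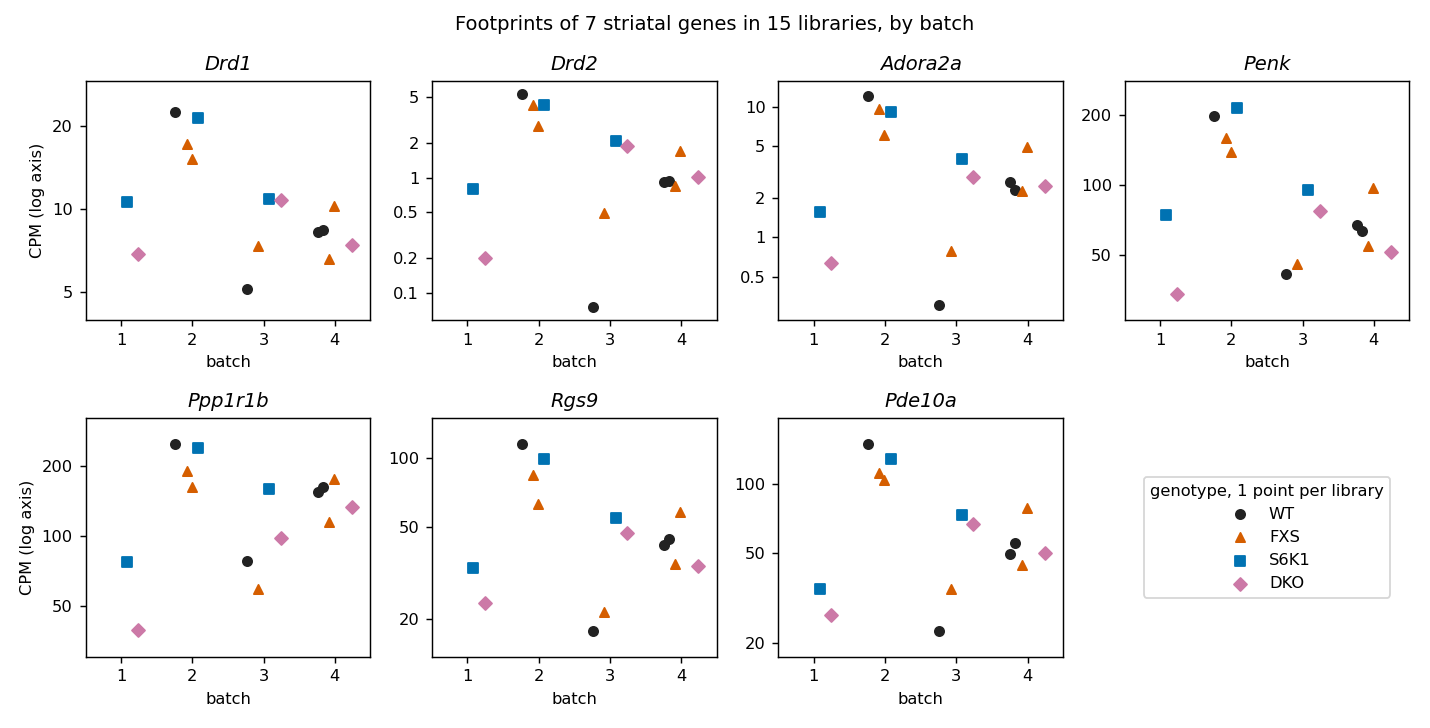
Footprints of the 7 genes in each of the 15 RPF libraries, in CPM on a log axis, 1 panel per gene and 1 point per library, set out by batch with colour for genotype. Batch 2 lies above all other batches in every panel except Ppp1r1b, where 162 CPM in batch 2 is below 176 CPM in batch 4.

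By batch, mean Drd1 footprints were 19.1 CPM ± 3.46 (SD, n = 4) in batch 2, 8.72 in batch 1 (n = 2), 8.53 in batch 3 (n = 4) and 8.17 in batch 4 (n = 5). Adora2a averaged 9.32 CPM ± 2.52 (SD, n = 4) in batch 2, against 1.11, 2.01 and 2.93 CPM in batches 1, 3 and 4. Penk averaged 178 CPM ± 34.6 (SD, n = 4) in batch 2, against 54.3, 64.9 and 66.7 CPM. Batches 1, 3 and 4 were close to each other for Drd1 and Penk. For Ppp1r1b they were not, with means of 58.2, 98.8 and 148 CPM in batches 1, 3 and 4 and 209.6 CPM ± 41.0 (SD, n = 4) in batch 2.

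The test of the batch terms together, with genotype in the model, called 7 of 7 genes in footprints by edgeR's quasi-likelihood test at a Benjamini-Hochberg adjusted p under 0.05. Adjusted p-values ran from 0.000591 for Ppp1r1b to 0.0137 for Rgs9. Batch differences were common, as 53.9% of the 13953 genes tested were called in this way. When the 4 libraries of batch 2 were left out, a check added after the values had been seen, 2 of 7 genes were still called, Ppp1r1b with an adjusted p of 0.00119 and Adora2a with 0.0401, where 39.6% of all genes were called. The other 5 had adjusted p-values from 0.0682 for Pde10a to 0.510 for Drd1. Both the number of libraries and the number of batches were smaller in that fit.

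The size of the variation set the genes apart more than the call. The standard deviation of log2 CPM over the 15 RPF libraries was 0.63 for Drd1, 1.44 for Drd2, 0.75 for Ppp1r1b, 1.43 for Adora2a, 0.82 for Penk, 0.79 for Rgs9 and 0.83 for Pde10a, against a median of 0.27 over all genes tested. Each exceeded that of 94.98% or more of the tested genes, and that of 97.5% or more of the genes of like mean level. The highest library was 4.38 times the lowest for Drd1, 6.28 for Ppp1r1b, 6.29 for Penk, 6.48 for Rgs9 and 6.64 for Pde10a. Batch took up 61.8 to 72.03% of each gene's log2 variance after genotype (median of all genes 45.6%), and genotype 7.76 to 16.1% after batch (median 12.2%).

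The footprints of the 7 genes varied together from library to library. Over the 15 libraries, Pearson's r for the 21 pairs ran from 0.704 (Drd1 with Ppp1r1b, permutation p 0.00354, adjusted p 0.00513) to 0.982 (Drd2 with Adora2a), with a median of 0.924, and Spearman's rho from 0.746 to 0.982. All 21 pairs had adjusted permutation p-values under 0.05 over the 42 pairs of both assays, the largest being 0.00513 for r and 0.00325 for rho. The permutations did not keep libraries within their batch. The share of all gene pairs that would pass is not reported here, so this count says nothing particular about the 7. Without the 2 libraries farthest from the median, r ran from 0.556 to 0.975. With each batch centred on its own mean it ran from 0.696 to 0.983, so the relation was also present inside batches. Over the 11 libraries outside batch 2, r ran from 0.410 to 0.967, with a median of 0.849. Libraries of 1 batch are not fully independent of each other, and the points share the depth and the composition of each library.

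Each library was given a position by the mean of the 7 genes' standardized log2 CPM. In footprints the first 4 places of 15 went to batch 2, with WT replicate 1 highest and S6K1 replicate 2 next. The 3 lowest were WT replicate 2 of batch 3, DKO replicate 1 of batch 1 and FXS replicate 3 of batch 3. The 7 genes together summed to 492 to 751 CPM in batch 2 and to 131 to 426 CPM in the other libraries. By this sum WT replicate 1 was highest and DKO replicate 1 lowest, and the 3 DKO libraries ran from 131 to 305 CPM.

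**Figure D2:**
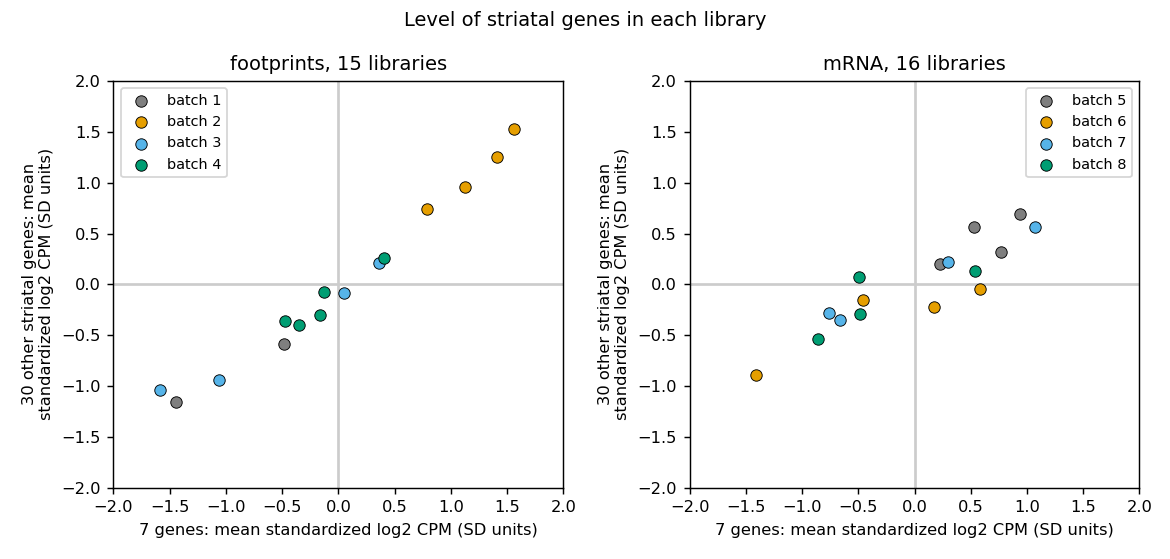
Each point is 1 library, placed by the mean standardized log2 CPM (in SD units) of the 7 genes on the x axis and of 30 other striatal genes on the y axis, with mRNA and footprints in separate panels. In footprints the 4 libraries of batch 2 take the first 4 places on both axes.

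The mRNA of the 7 genes varied less between libraries than their footprints. The ratio of the highest to the lowest of the 16 libraries was 1.61 for Drd1, 2.11 for Drd2, 2.27 for Adora2a, 2.03 for Penk, 2.19 for Ppp1r1b, 2.06 for Rgs9 and 3.27 for Pde10a. The standard deviation of log2 CPM was 0.20 for Drd1 and 0.53 for Pde10a, with the other 5 between them, against a median of 0.22 over the 14215 genes tested. Among genes of like mean level, Drd1 exceeded 45.2% in this spread. Adora2a exceeded 87.0% of such genes and Pde10a 99.0%, with Drd2, Ppp1r1b, Penk and Rgs9 between those values. The batches of the 2 assays are different ones.

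Pde10a mRNA had a batch of its own. In WT it was at 81.6 CPM in batch 5 and at 37.5, 38.1 and 52.5 CPM in batches 6, 7 and 8, and in FXS at 89.4 CPM and then 41.8, 45.4 and 44.2 CPM. In S6K1 it was at 69.4, 32.6, 38.6 and 41.7 CPM and in DKO at 95.8, 29.3, 33.4 and 56.2 CPM, in the same order of batches. All 4 libraries of batch 5 lay above all 12 others. Rgs9 mRNA was also higher there, at 73.6 to 79.8 CPM in batch 5 and 38.8 to 73.2 CPM in the other batches. Such a separation of batch 5 was found for 6.51% of the 14215 genes tested.

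Penk mRNA was low in that batch. In WT it was at 184.6 CPM in batch 5 and at 298, 313 and 308 CPM in batches 6, 7 and 8, and in FXS at 191.5, 304, 225 and 232 CPM. In S6K1 it was at 188, 190.3, 375 and 256 CPM and in DKO at 188, 256, 227 and 229.8 CPM. Batch 5 spanned 184.6 to 191.5 CPM, and 1 other library, S6K1 replicate 2 at 190.3 CPM, fell in that span.

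The receptor genes and Ppp1r1b showed no single batch that stood apart in mRNA. Drd1 mRNA ran from 15.3 CPM in FXS replicate 4 to 24.6 CPM in FXS replicate 2, around a median of 19.1 CPM. Drd2 ran from 15.6 CPM in S6K1 replicate 2 to 33.1 CPM in DKO replicate 1, with a median of 24.3 CPM. Adora2a ran from 19.6 to 44.4 CPM, both from S6K1 (replicates 2 and 3), and Ppp1r1b from 116 CPM in FXS replicate 3 to 254 CPM in S6K1 replicate 1. Summed over the 7 genes, S6K1 replicate 2 was lowest at 444 CPM and S6K1 replicate 3 highest at 784 CPM.

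**Figure D3:**
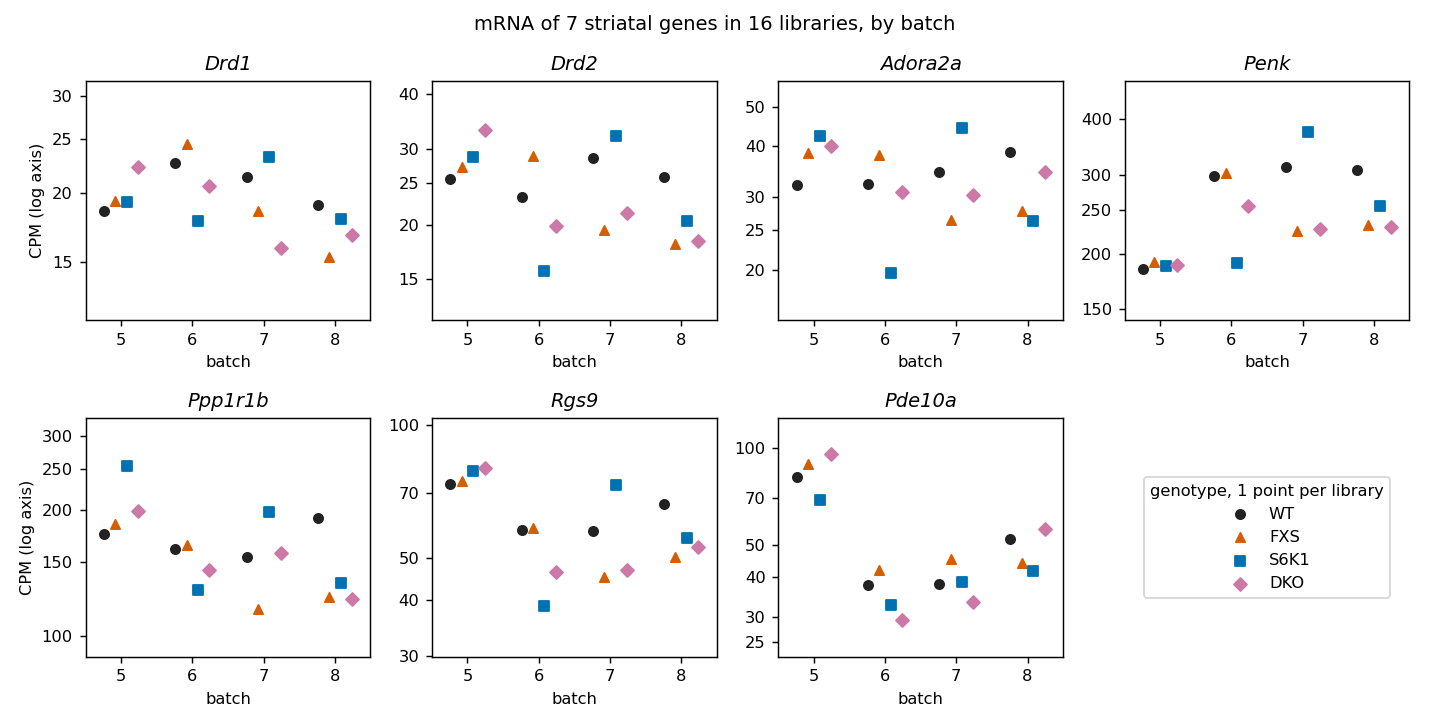
mRNA of the 7 genes in each of the 16 RNA libraries, in CPM on a log axis, 1 panel per gene and 1 point per library, set out by batch with colour for genotype. Batch 5 lies above the other batches for Rgs9 (73.6 to 79.8 CPM) and Pde10a (69.4 to 95.8 CPM) and overlaps them in the other panels.

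The batch terms were called for 2 of 7 genes in mRNA, Pde10a with an adjusted p of 3.42e-08 and Rgs9 with 0.0198 (edgeR), where 40.5% of all genes were called. Penk had an adjusted p of 0.0913. With batches 6 to 8 alone, edgeR called 0 of 7 genes and 71 of 14196 genes in all (0.5%), while 1 member and 1715 genes had an unadjusted p under 0.05. In the full set, limma with voom weights called 4 members and 40.2% of all genes, and DESeq2 called 3 members and 41.6%. Leaving out 1 batch 5 library of FXS, S6K1 or DKO left Rgs9 uncalled, with adjusted p-values of 0.0713, 0.0791 and 0.0920. Some marker sums of other tissue parts also differed in batch 5. The cortical excitatory markers summed to 1674 to 1949 CPM there and to 2269 to 3307 CPM in batches 6 to 8, and the 8 oligodendrocyte markers to 1754 to 1878 CPM against 2274 to 3265 CPM. The 8 interneuron markers summed to 891 to 953 CPM in batch 5 against 1189 to 1391 CPM, and the 8 thalamic markers to 59.6 to 68.9 CPM against 72.5 to 148 CPM. Slc17a7 dominated the cortical excitatory sum, with a median of 2234 CPM against 2566 CPM for all 6 genes. The batch terms were called for 2 of those 6. Sums of the deep-layer cortical, hippocampal, choroid plexus, olfactory bulb, cholinergic, dopamine and cyclic AMP, and other striatal lists overlapped between batch 5 and the rest. The part of the differing sums in the values of Pde10a, Rgs9 and Penk was not tested.

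Pairs of members were less tightly tied in mRNA. Pearson's r for the 21 pairs ran from -0.56 to 0.87 over 16 libraries, with a median of 0.48. An adjusted permutation p under 0.05 was found for 10 pairs by r and for 11 by Spearman's rho. These counts too have no share of all gene pairs beside them. Drd2 and Adora2a, found in the same striatal cells, were at r 0.866 and rho 0.829, with adjusted permutation p-values of 3.23e-05 and 0.000274 and r 0.819 without the 2 farthest libraries. The lowest pair was Penk with Pde10a, at r -0.56 and rho -0.48 (adjusted permutation p 0.0338 and 0.0766). Without the 2 farthest libraries r was -0.55, and with batches centred it was 0.215. Penk with Rgs9 went from r -0.03 over all libraries to 0.974 with batches centred. With batches centred the 21 values ran from -0.11 to 0.97, with a median of 0.766.

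Against this spread, no member passed the test between genotypes. Differences of FXS, S6K1 and DKO from WT, of DKO from FXS, and the interaction of the 2 deficiencies were tested in mRNA, in footprints and in translational efficiency (TE, the footprint difference less the mRNA difference in 1 model), and 0 of 7 genes were called in each of the 15 tests by edgeR, DESeq2 or limma with voom weights. The 3 comparisons with WT share the WT libraries. In every genotype and both assays, the values of all 7 genes overlapped those of WT. The share of all genes that did so is not reported here, so this count says nothing particular about the 7.

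In mRNA, 0.155% of 14215 genes were called for FXS against WT, 0.0211% for S6K1 against WT, 5.23% for DKO against WT, 0.0281% for DKO against FXS and 0.0% for the interaction. By edgeR, 0 members had an unadjusted p under 0.05 in these tests, where 12.7%, 7.37%, 22.3%, 9.81% and 3.5% of all genes had one, in the same order. The members' median log2 fold change was -0.15 in FXS, -0.09 in S6K1 and -0.17 in DKO. In DKO all 7 estimates were below 0, between -0.27 and -0.02. Penk mRNA had the lowest, -0.27 ± 0.18 (SE, adjusted p 0.413, edgeR), with means of 276 CPM ± 61.1 (SD, n = 4) in WT and 225 CPM ± 27.8 (SD, n = 4) in DKO. Drd1 mRNA averaged 20.4 CPM ± 1.95 (SD, n = 4) in WT and 18.9 CPM ± 3.03 (SD, n = 4) in DKO. Inside batches the sign was not constant, as all 7 genes were higher in DKO than in WT in batch 5, while all 7 were lower in batch 6 and 6 of 7 in each of batches 7 and 8. With batches 6 to 8 alone the median was -0.28. In the same comparison the cortical excitatory genes Slc17a7 and Tbr1 rose, by 0.33 ± 0.07 (SE) and 0.28 ± 0.07 (adjusted p 0.0155 and 0.0310, edgeR). The part of that in the members' mRNA values was not tested.

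In footprints, 0.165% of 13953 genes were called for FXS against WT, 0.00717% for S6K1 against WT, 0.366% for DKO against WT, 0.0143% for DKO against FXS and 0.0% for the interaction. S6K1 against WT gave the largest member estimates, with a median of 0.65 and all 7 above 0. Drd2 was at 1.13 ± 0.69 (SE, interval -0.22 to 2.48) and Drd1 at 0.47 ± 0.25. The unadjusted p was under 0.05 for 2 of 7 genes, where 8.74% of all genes had one. These were Ppp1r1b at 0.60 ± 0.23 (SE, adjusted p 0.501, edgeR) and Penk at 0.73 ± 0.32 (SE, adjusted p 0.557, edgeR). In DKO against WT the members' median was 0.23, from -0.13 for Ppp1r1b to 0.74 for Drd2, and in FXS against WT it was 0.01. Both had 0 members at an unadjusted p under 0.05, where 17.1% and 9.87% of all genes had one. DKO against FXS and the interaction also had 0, where 6.19% and 3.07% of all genes had one.

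The difference between S6K1 and WT footprints was unlike in the 2 batches that held both. In batch 2, S6K1 lay between -0.40 and 0.12 of WT on the log2 scale, with 1 of 7 genes above. In batch 3, where the WT library had the lowest mean standardized level of all 15, S6K1 lay 1.02 to 3.77 above WT with all 7 genes above. DKO likewise lay 0.32 to 3.63 above WT in batch 3 and between -0.35 and 0.13 in batch 4, with 1 gene above. FXS was below WT for all 7 genes in batch 2, and above it for 6 in batch 3 and 5 in batch 4. Without batch 2 all 7 members had an unadjusted p under 0.05 for S6K1 against WT, where 8.19% of all genes had one. The median was 1.16 and the lowest adjusted p 0.356 (edgeR), so 0 were called. In that fit S6K1 and WT shared only batch 3, with 1 library of each, the WT one being the lowest of all 15. As the 7 genes varied together, they are not 7 separate observations. Without a batch term the DKO median turned from 0.23 to -0.72, with 0 of 7 estimates above 0.

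**Figure D4:**
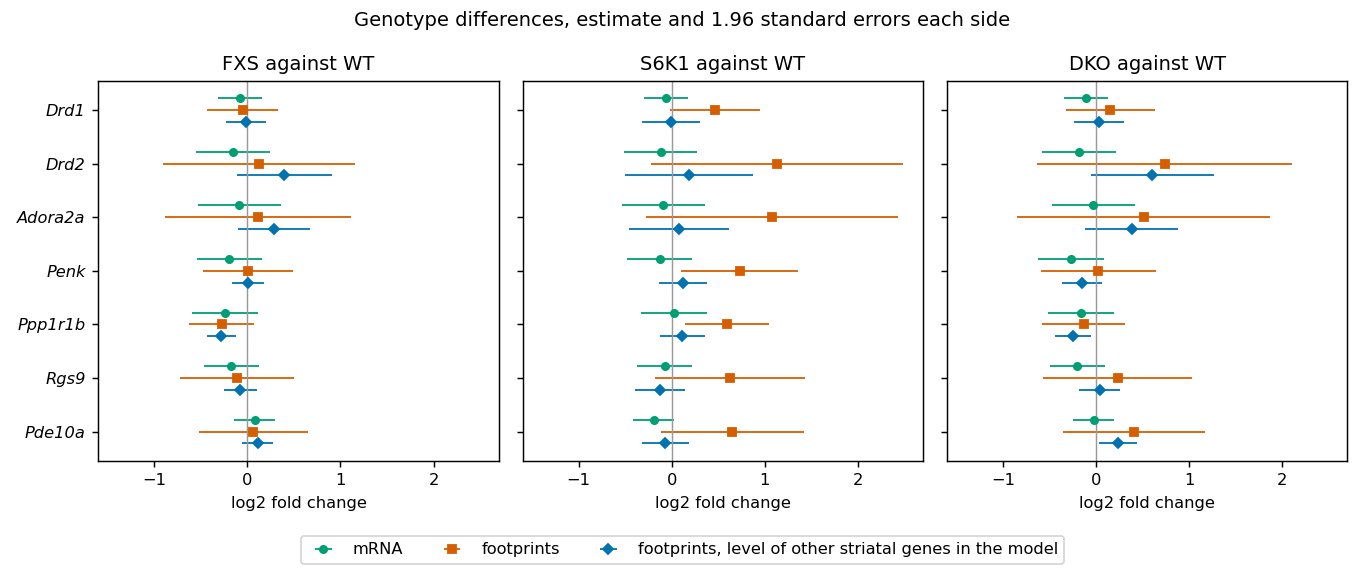
log2 fold change of each of the 7 genes against WT with its 95% interval, 1 panel per genotype. Values for mRNA and footprints are from the model with batch. A further series shows footprints with the mean level of 30 other striatal genes added to that model. Without that level in the model, the intervals of Drd2 and Adora2a are wider in footprints than in mRNA, and Drd2 footprints in S6K1 run from -0.22 to 2.48.

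The precision differed accordingly. The median standard error of the 7 genes was 0.30 for FXS and 0.39 for S6K1 and DKO in footprints. When the mean level of 30 other striatal genes was put in the model as a covariate, the median estimate for S6K1 footprints went from 0.65 to 0.08 and its median standard error from 0.39 to 0.14. The DKO median went from 0.23 to 0.04, and the FXS median was 0.01 in both, with 0 members called. Over all genes tested, that covariate took the number called for DKO against WT from 743 to 497 in mRNA, from 51 to 27 in footprints and from 662 to 293 in TE. For FXS against WT it went from 22 to 7 in mRNA and from 23 to 26 in footprints. The covariate is a level measured in the same libraries and not a record of the dissection. Its 30 genes were chosen with earlier results of these data known, and 29 of them correlated above 0.5 with the members in footprints. Smaller member estimates and errors could follow from that choice alone, so this fit cannot decide what the genotypes do to the members.

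TE gave the same absence of calls. The share of 13654 genes called was 0.0952% for FXS against WT, 0.0293% for S6K1 against WT, 4.85% for DKO against WT, 0.0146% for DKO against FXS and 0.0% for the interaction. The members' median was 0.05 in FXS, 0.83 in S6K1 and 0.42 in DKO. Without a batch term the DKO median was -0.52, with 0 of 7 estimates above 0. Without footprint batch 2 the S6K1 median was 1.26, and all 7 had an unadjusted p under 0.05, where 7.92% of all genes had one, with 0 called. In that fit too S6K1 and WT shared only footprint batch 3, with 1 library of each. Penk in S6K1 had an unadjusted p of 0.0343 at 0.85 ± 0.37 (SE, adjusted p 0.637, edgeR), the 1 member with a p under 0.05, where 7.51% of all genes had one. In the other TE tests 0 members had one, where it was 13.4% of all genes for FXS against WT, 24.9% for DKO against WT, 8.36% for DKO against FXS and 4.14% for the interaction. Since footprint and mRNA libraries carry different batch numbers, a library that was high in footprints had no mRNA partner in the labels.

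Relative to mRNA, 2 of the genes had few footprints. The log2 ratio of mean footprint CPM to mean mRNA CPM was -3.71 for Drd2 and -3.02 for Adora2a, against a median of -0.35 over 13654 genes, and 0.930% and 2.33% of the genes had lower values. Penk was at -1.40 and Drd1 at -0.80, below the median, while Ppp1r1b at -0.23, Rgs9 at -0.21 and Pde10a at 0.41 were above it. All of these were higher in batch 2. The mRNA mean in the denominator was the same in each reading, so the shifts restate the footprint levels given above. With the batch 2 libraries alone in the numerator, Drd2 was at -2.54 and Adora2a at -1.85, and without them at -4.60 and -3.89. Pde10a went from 1.26 in batch 2 to -0.08 without it, and Rgs9 from 0.60 to -0.67. The order of Drd2, Adora2a, Penk and Drd1 from the lowest upward was kept in all 3 readings.

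**Figure D5:**
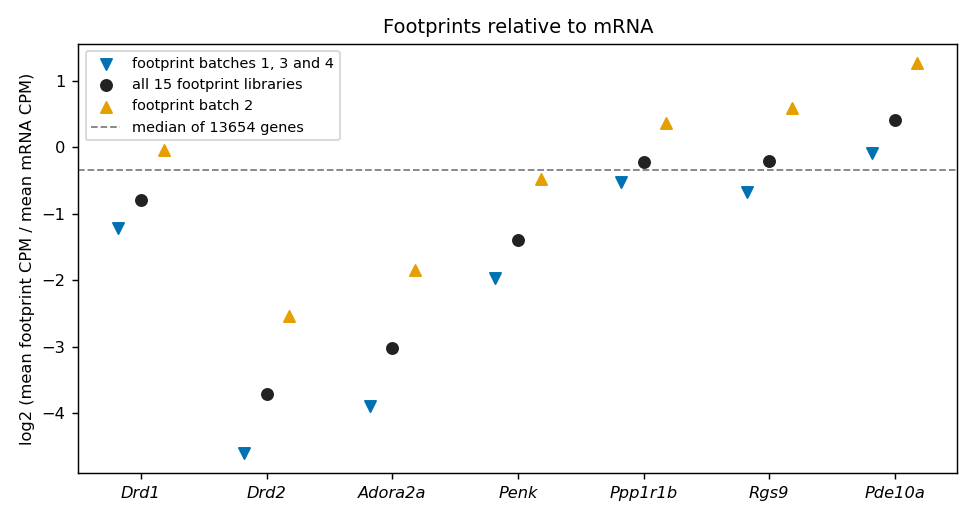
log2 ratio of mean footprint CPM to mean mRNA CPM for each of the 7 genes, over all RPF libraries, in batch 2 and without batch 2, with the median of all genes as a dashed line. The mRNA mean is the same in each reading, so shifts between readings restate the footprint levels. Drd2 (-3.71) and Adora2a (-3.02) lie far below the median of -0.35, and batch 2 lies above the other libraries for each gene.

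A further 30 striatal genes, among them Tac1, Pdyn, Adcy5, Rasd2, Rxrg and Ptpn5, moved with the members in footprints. Their correlation with the mean of the 7 genes was above 0.5 for 29 of 30 over the 15 RPF libraries and ranged from 0.299 (Strn) to 0.976 (Adcy5, the main striatal adenylyl cyclase). In batch 2 they summed to 1003 to 1301 CPM and elsewhere to 605 to 867 CPM. The batch terms were called for 27 of 30, against 53.9% of all genes. In mRNA the correlation ran from -0.36 to 0.870, with 15 of 30 above 0.5. The batch terms were called there for 19 of 30, against 40.5% of all genes. The share of all genes with a correlation above 0.5 is not reported here for either assay. Counts above 0.5 in this and the other lists therefore have no background beside them. In the genotype tests of the 3 measures 0 of 30 were called, with medians in footprints of -0.07 for FXS, 0.27 for S6K1 and 0.07 for DKO against WT. Their footprint to mRNA ratio had a median of -0.35, from -4.60 for Lrrc10b to 2.67 for Gprin3, and 6 of 30 were in the lowest 10% of all genes.

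Genes of dopamine and cyclic AMP signalling were mixed. Of 22 dopamine and cyclic AMP signalling genes, 20 were tested in mRNA and 21 in footprints, and the batch terms were called for 10 and 10 of them, against 40.5% and 53.9% of all genes. Their correlation with the members in footprints was above 0.5 for 5 genes, including Gnal (0.858), the G protein that couples the receptors of Drd1 and Adora2a to adenylyl cyclase, and the D3 receptor gene Drd3 (0.799). It was below -0.5 for 5, including Prkaca (-0.80), the catalytic subunit of protein kinase A, and Ppp3ca (-0.72), a calcineurin subunit that dephosphorylates DARPP-32. The only gene of this list called between genotypes was Adora1, the adenosine A1 receptor gene, whose mRNA rose by 0.29 ± 0.08 (SE, adjusted p 0.0295, edgeR) in DKO against WT.

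By a rule that ranked all genes of at least 1 CPM by their correlation with the mean of the 7, the 10 most alike in footprints, of 12668 genes, were Adcy5 (0.976), Sh3rf2 (0.963), Slc35d3 (0.958), Cd4 (0.957), Syndig1l (0.954), Pde1b (0.95), Serpina9 (0.947), Rasgrp2 (0.941), Dach1 (0.937) and Srgap1 (0.937). In mRNA, of 13562 genes, they were Syndig1l (0.870), Sh3rf2 (0.861), Rpgr (0.850), Pde1b (0.844), Cd4 (0.826), Rasd2 (0.791), Zfp870 (0.790), E130308A19Rik (0.789), Dnajc28 (0.787) and Rxrg (0.786). The assays shared 4 of 10, namely Sh3rf2, Cd4, Syndig1l and Pde1b, and in each 5 of the 10 were on the list of further striatal genes. That list was drawn up with earlier results of these data known, so the overlap is no independent support. The values are a description over 15 and 16 libraries.

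Markers of other cells were read in the same libraries. The 6 genes of cholinergic neurons, such as Chat and Slc5a7, which mark the large interneurons of the striatum but also basal forebrain neurons, summed to 22.6 to 35.6 CPM in batch 2 footprints and 3.50 to 18.3 CPM elsewhere, and all 6 correlated with the members at 0.803 to 0.928. In mRNA the same 6 genes showed no such relation, with r from -0.14 to 0.300. Of 8 deep-layer cortical genes, Foxp2 (0.920), Syt6 (0.803), Bcl11b (0.723) and Nxph4 (0.549) were above 0.5 in footprints. Crym at 0.317, Tle4 at 0.04, Cplx3 at 0.001 and Fezf2 at -0.18 were not. The summed footprints of this list in batch 2 overlapped those in the other libraries. Whether the genes above 0.5 are confined to cortex was not tested, nor whether deep cortical layers as such moved with the members. What set these genes apart was not tested either. The 6 cortical excitatory genes ran from -0.77 (Neurod6) to 0.191.

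Summed lists for other structures at the edge of the cortex, and for oligodendrocytes and interneurons, did not separate batch 2. In footprints the summed level in batch 2 and in the other libraries was 39.2 to 54.2 against 20.8 to 62.2 CPM for 6 hippocampal genes and 92.0 to 100.2 against 71.2 to 104 CPM for 8 thalamic genes. It was 19.2 to 129 against 10.01 to 63.6 CPM for 6 choroid plexus genes, 4.50 to 96.3 against 3.07 to 66.0 CPM for 4 olfactory bulb genes and 2227 to 2959 against 1758 to 3993 CPM for 8 oligodendrocyte genes. For 8 interneuron genes it was 1812 to 2282 against 1626 to 2147 CPM. Gene by gene, the correlation with the members in footprints was above 0.5 for 1 choroid plexus gene (Clic6, 0.897), 2 thalamic genes and 2 interneuron genes. It was below -0.5 for 1 interneuron gene. In the hippocampal, olfactory bulb and oligodendrocyte lists 0 genes were beyond either level. No gene of these lists was at 0 in every library. The part of any of these lists in the members' values was not tested.

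The authors' deposited tables cover FXS and DKO against WT. All 7 genes are listed there for mRNA and 5 for footprints and for TE, with Drd2 and Adora2a not listed in those. Among the members given an adjusted p in the authors' deposited tables, 0 are under 0.05. For FXS mRNA 5 of the 7 have one, and Drd1 and Drd2 do not. The share of all rows under 0.05 in the authors' deposited tables is not reported here. For DKO footprints, the authors' deposited table has log2 fold changes from -0.14 to 0.41 with a lowest adjusted p of 0.597, and for DKO mRNA from -0.27 to -0.03 with a lowest adjusted p of 0.323.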

How the data were processed

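The deposited files hold raw counts per gene symbol over coding sequence, made by the authors, and the authors' comparison tables, which per the file headers hold log2 fold changes, a test score, a mean signal of normalized counts, and raw and adjusted p-values. Tools named in the submitters' processing notes are cutadapt 2.0, Bowtie2, TopHat2 and RSEM, with build mm10; which tool made which file is not given in the sources used here. All count columns were assigned to libraries by their names.

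Counts were analysed in R 4.3.3 with edgeR 4.0.16 (robust quasi-likelihood F-test; filterByExpr; TMM factors within each assay), with genotype and batch as terms and all genotypes fitted together. For TE, the 31 libraries entered 1 model in which each assay had its own batch terms, on 13654 genes. Calls were made at an adjusted p under 0.05 (Benjamini-Hochberg, over every gene in the test). CPM are TMM-scaled, log2 CPM used a prior count of 2, and intervals are 1.96 standard errors. Correlations used 100000 permutations (Python 3.11.15, scipy 1.17.1), two-sided. Limma 3.58.1 with voom weights and DESeq2 1.42.0 were alternatives. The fits were tested on simulated data. RNA replicate numbers coincide with the batches of the labels, so the batch term pairs the RNA libraries, and 5750 of 14215 genes were called for it.

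The genes named are the 7 members in every comparison, up to 4 called genes of each other list, and the 10 genes most correlated with the members' mean in each assay; genes of other lists named with a level or correlation were chosen after their values were seen, and some list members are not reported here by name. The members and lists were chosen with earlier results of these data known.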

Additional observations from a re-analysis of the deposited data

Results flagged for a closer look

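In 42 groups of 4 or 5 libraries of 1 gene, assay and genotype, 4 had a single library far from the rest by Dixon's test. The test was read at the 95% level, which chance alone passes in about 1 group in 20 where libraries share no batch differences. These libraries do differ by batch, and the groups are not independent, as the members varied together. The share of all genes flagged by this rule is not reported here. Penk mRNA in WT replicate 1, of batch 5, was at 184.6 CPM, and the other WT libraries were at 298 to 313 CPM. Pde10a mRNA in FXS replicate 1, also of batch 5, was at 89.4 CPM, against 41.8 to 45.4 CPM in the others. Drd2 footprints in WT replicate 1, the WT library of batch 2, were at 5.30 CPM, against 0.0753 to 0.928 CPM. Penk footprints in the same library were at 198 CPM, against 41.6 to 67.1 CPM. Each of these libraries was the only one of its genotype in its batch. The groups of 3 libraries, S6K1 and DKO footprints, were too small for this test.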

How the results depend on the processing

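The count of members called between genotypes was 0 in every test and alternative run: other scaling of library size, no filter, DESeq2, limma with voom weights, the 2 genotypes alone, the covariate, fewer batches and each library left out in turn. With no batch term, and so no replicate block, 0 members were called too, but the DKO footprint median was -0.72 against 0.23 with it. Among 2170 estimates of a member under an alternative, 218 had the other sign than the estimate as reported, and none was called under either. For the batch terms in mRNA, 2 members were called as reported, 4 with limma, 3 with DESeq2, 0 in batches 6 to 8 alone, and 1 to 3 with 1 library left out. For those in footprints, 7 were called as reported and with any 1 library left out, and 2 without batch 2, chosen after seeing the data. Of the 10 genes most like the members, 5 in mRNA and 6 in footprints stayed with batches centred. Low counts limit Drd2 and Adora2a footprints, and the uneven spread of genotypes over footprint batches limits every footprint comparison.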
